A study of Mus musculus with 14 samples.

Results

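The genes described here are 10 imprinted genes, taken by symbol: Cdkn1c, Igf2r, Grb10, Mest, Peg3, Plagl1, Impact, Peg10, Ndn and Gnas. All 10 were found among the 35389 gene identifiers of one deposited table and among the 35341 symbols of the other. The match by symbol uses no measured value, but the genes were chosen with earlier results of these data known. Polyadenylated RNA was sequenced from mouse oocytes in 14 libraries, which form 7 groups of 2. In the NSN and SN set the groups were SN oocytes overexpressing Rnaseh1, SN oocytes overexpressing mCherry, NSN oocytes overexpressing Rnaseh1 and NSN oocytes overexpressing mCherry. SN oocytes have a nucleolus ringed by condensed chromatin and are largely silent in transcription, and NSN oocytes lack the ring and still transcribe. In the rescue set the groups were Rnaseh1 with Supt6, Rnaseh1 alone and mCherry, with no nucleolar state in the labels. Rnaseh1 encodes RNase H1, which cuts the RNA strand of RNA:DNA hybrids, Supt6 encodes the transcription elongation factor and histone chaperone SPT6, and mCherry is a red fluorescent protein that serves as the control. Every group carried an overexpressed transcript, so the series holds no group without one. The labels give no strain, age, number of oocytes, delivery method or time, and leave it unclear if replicate libraries had their own animals or pools of oocytes. The p-values therefore measure only the spread between these libraries, which may be technical.

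An imprinted gene is expressed mainly from the copy inherited from 1 parent, and the choice follows DNA methylation laid down in the germ line. In growing oocytes earlier imprints have been erased, and DNMT3A with its partner DNMT3L methylates new ones across transcribed DNA that carries histone H3 lysine 36 methylation. In the offspring Cdkn1c, Igf2r and Grb10 are expressed mainly from the maternal copy, Mest, Peg3, Plagl1, Impact, Peg10 and Ndn from the paternal copy, and Gnas makes several transcripts whose promoters follow either parent. The oocyte itself holds no allele from the sire of a future embryo, and a TPM per gene (transcripts per 1000000 transcripts) does not separate alleles or transcripts, so the values below are levels of RNA and not states of an imprint.

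The labels held up against the overexpressed genes. Rnaseh1 stood between 229 and 2270 TPM in the 8 libraries given Rnaseh1, against 81.0 to 137 TPM in the 6 mCherry libraries, and Supt6 at 28.2 and 21.0 TPM in the libraries given both, against 2.55 to 3.28 TPM in the other rescue libraries. The oocyte markers summed to 19610 to 38910 TPM in every library. The sums cover 15 markers in the NSN and SN set and 14 in the rescue set, where the symbol H1foo was absent. The 18 granulosa and cumulus markers summed to 26.4 to 57.0 TPM, most of it Cyp19a1 and Nr5a2, and Amh, Amhr2 and Foxl2 were listed at 0 in all 14 libraries. The 8 stroma and endothelium markers moved with the treatment in the rescue set, at 33.4 and 34.9 TPM with Rnaseh1 and Supt6, 8.54 and 11.1 TPM with Rnaseh1, and 33.7 and 35.7 TPM with mCherry. Pecam1 made up most of that sum and Col1a1 was at or near 0, and the 7 blood markers, of which only Cd68 reached 1 TPM, summed to 2.47 and 1.9 TPM with Rnaseh1 and Supt6, 0.1 and 0 TPM with Rnaseh1, and 2.89 and 4.74 TPM with mCherry. With Rnaseh1 in the rescue set 10 of 14 tested oocyte markers fell and 2 rose, where 46.2% of all tested genes fell and 20.3% rose. The part of these marker changes in the results below was not tested. Between 10036 and 12230 genes reached 1 TPM in a library. The replicates of NSN Rnaseh1 and of SN mCherry stood further apart than those of the other groups, with an SD across genes of 1.28 and 1.05 for their log2 difference, against 0.35 to 0.69 in the other 5 groups.

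Many imprinted promoters are rich in CpG and carry TGCCGC, the hexamer that the imprint-keeping zinc finger protein ZFP57 binds when it is methylated. The following windows are printed because they hold that hexamer and belong to 3 genes that passed the test in the rescue set, Mest, Plagl1 and Grb10. Each is 300 bases of RefSeq sequence on the GRCm38.p6 assembly, read 5′ to 3′ on the strand of the gene, from 250 bases before an annotated transcript start to 50 after it, with each match in capitals.
Mest, chr6:30737800-30738099, plus strand: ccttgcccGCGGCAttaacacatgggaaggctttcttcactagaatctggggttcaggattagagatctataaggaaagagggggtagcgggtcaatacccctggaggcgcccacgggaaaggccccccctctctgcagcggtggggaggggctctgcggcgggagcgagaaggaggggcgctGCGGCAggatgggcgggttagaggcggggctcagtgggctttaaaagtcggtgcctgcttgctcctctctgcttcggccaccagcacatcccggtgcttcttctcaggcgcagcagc
Plagl1, chr10:13090582-13090881, plus strand: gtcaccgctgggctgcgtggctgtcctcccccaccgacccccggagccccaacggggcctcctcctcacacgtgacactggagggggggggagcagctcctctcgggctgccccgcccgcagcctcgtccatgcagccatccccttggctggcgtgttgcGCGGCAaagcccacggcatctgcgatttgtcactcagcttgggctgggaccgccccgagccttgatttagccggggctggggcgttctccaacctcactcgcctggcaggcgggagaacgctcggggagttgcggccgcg
Grb10, chr11:12037371-12037670, minus strand: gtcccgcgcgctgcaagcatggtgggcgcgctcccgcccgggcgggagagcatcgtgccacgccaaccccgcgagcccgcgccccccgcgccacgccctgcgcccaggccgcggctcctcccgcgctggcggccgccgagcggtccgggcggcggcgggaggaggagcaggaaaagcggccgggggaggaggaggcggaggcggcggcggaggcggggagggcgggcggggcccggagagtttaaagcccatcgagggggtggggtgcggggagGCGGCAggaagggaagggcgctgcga
Both strands were searched for TGCCGC, and every match in these windows is its reverse complement GCGGCA. The Mest window held 2 matches and 17 CpG, the Plagl1 window 1 match and 26 CpG, and the Grb10 window 1 match and 45 CpG. Windows were examined for 7 of the 10 genes, 13 in all, and 4 of them held a match. The 2 Mest windows with matches overlapped almost entirely. No window of Cdkn1c, Impact or Peg10 was examined, so the presence of a match in those genes was not tested. Of 32851 promoter windows of the same length, 11.6% held at least 1 match, 1.5% held 2 or more, and the median number of CpG was 7. The matches describe the sequence and no binding or methylation was measured.

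The 10 genes differed widely in abundance. Gnas and Mest were the highest, with means over the libraries of 156.7 and 87.1 TPM in the NSN and SN set and 138 and 154.9 TPM in the rescue set, so their order differed between the sets. In the NSN and SN set the libraries of Gnas (113 to 208 TPM) and Mest (32.3 to 117 TPM) overlapped. Plagl1 came next, at 32.3 and 33.4 TPM, and its highest library in the NSN and SN set (61.0 TPM) was above the lowest of Mest. Cdkn1c, Grb10, Igf2r, Impact and Peg3 averaged 5.92, 4.17, 2.66, 2.37 and 1.06 TPM in the NSN and SN set and 3.66, 5.29, 3.30, 1.19 and 1.19 TPM in the rescue set, and neighbours in this order overlapped between libraries. Peg10, a retrotransposon-derived gene at chr6:4747306-4760517 on the plus strand, and Ndn, at chr7:62346569-62350262 on the plus strand, which encodes the growth suppressor necdin, did not exceed 0.11 TPM in any of the 14 libraries. They did not reach the filter of 1 TPM in at least 2 libraries, so 8 of the 10 genes were tested in each set. Impact passed the filter in the rescue set without either Rnaseh1 library reaching 1 TPM. In the NSN and SN set it passed without either SN Rnaseh1 library reaching 1 TPM. Some difference was therefore built into its selection in both sets. The counts below refer to the 8 tested genes. In such bulk libraries fewer cells that express a gene cannot be told apart from less RNA of it per cell.

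In the rescue set the best-measured imprinted genes moved in opposite directions with Rnaseh1. Mest fell and Gnas and Plagl1 rose, beside falls of the low-level genes Grb10 and Impact. Of the 8 tested genes, 5 passed limma's moderated test with an adjusted p under 0.05, 2 upward and 3 downward, against 66.5% of all 12859 tested genes (20.3% upward and 46.2% downward). The share among the imprinted genes lay near that background. Their median log2 fold change was 0, against -0.52 over all tested genes. All fold changes are of TPM + 1, which understates the change of low genes, and adjusted p-values are limma's with the Benjamini-Hochberg adjustment over all genes tested.

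**Figure D1:**
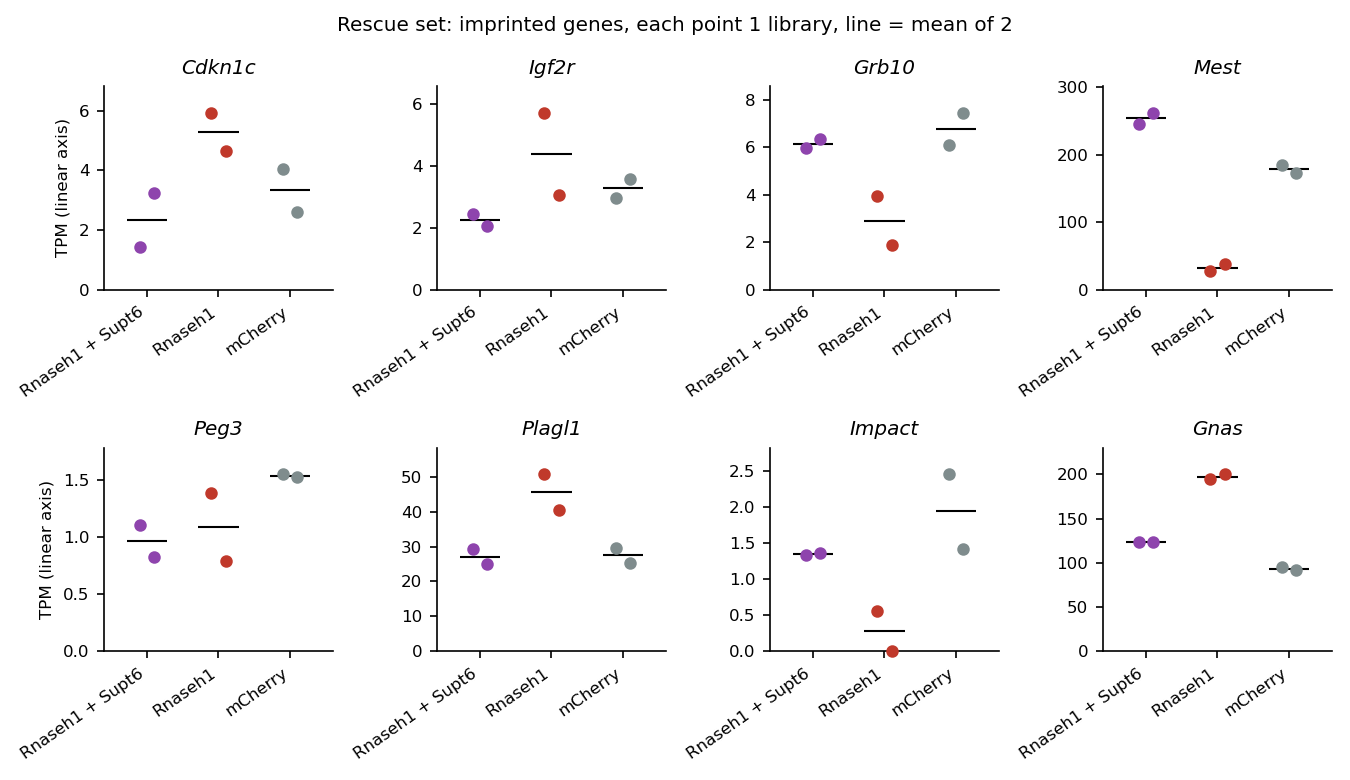
TPM of 8 imprinted genes in the rescue set by group, each point 1 library and each line the mean of 2, on linear axes from 0. Mest is lowest and Gnas and Plagl1 are highest in the 2 Rnaseh1 libraries, with no overlap with mCherry, and with Supt6 added Mest stands at 244.9 and 262.2 TPM.

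Among the paternally expressed genes, Mest showed the largest difference of the 8. Mest (ENSMUSG00000051855.15) encodes a protein of the alpha/beta hydrolase family and lies at chr6:30723547-30748465 on the plus strand (GRCm38, GENCODE M21), and its 3′ end overlaps that of Copg2 on the other strand. Mest stood at 27.3 and 37.8 TPM in the Rnaseh1 libraries, against 183.9 and 173.2 TPM in the mCherry libraries. Both Rnaseh1 libraries lay far below both mCherry libraries. The log2 fold change was -2.44 (SE 0.15, adjusted p = 1.1e-05), or 1.92 below the median of all genes, which placed Mest above 9.32% of the tested genes. Across all genes, 81.1% had libraries that did not overlap in this comparison. The call held under 9 alternative ways of processing and without any 1 of the 6 libraries, with values from -2.67 to -1.85.

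Plagl1 (ENSMUSG00000019817.18), a zinc finger transcription factor that restrains cell division, lies at chr10:13060504-13131694 on the plus strand. Its level was 50.8 and 40.6 TPM in the Rnaseh1 libraries, against 29.7 and 25.2 TPM in the mCherry libraries. The groups did not overlap, and the log2 fold change was 0.71 (SE 0.17, adjusted p = 0.0077). This call was lost without mCherry replicate 2, at 0.60 with an adjusted p of 0.054. Impact (ENSMUSG00000024423.6) encodes an inhibitor of the amino acid-sensing kinase GCN2. It stood at 0.56 TPM in one Rnaseh1 library and was listed at 0 in the other, against 2.46 and 1.42 TPM with mCherry. Neither Rnaseh1 library reached the filter of 1 TPM, so part of the fall was built into the selection of Impact. Its log2 fold change was -1.21 (SE 0.32, adjusted p = 0.013), and the call was lost without Rnaseh1 replicate 2 (adjusted p = 0.051) or mCherry replicate 1 (adjusted p = 0.075). Peg3 (ENSMUSG00000002265.17), a zinc finger gene at chr7:6703892-6730431 on the minus strand, stood at 1.38 and 0.79 TPM with Rnaseh1, against 1.55 and 1.52 TPM with mCherry. It did not pass, at -0.30 (SE 0.26, adjusted p = 0.35).

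Of the maternally expressed genes only Grb10 passed. Grb10 (ENSMUSG00000020176.17) encodes an adaptor that binds the insulin and IGF1 receptors and restrains growth, at chr11:11930508-12038683 on the minus strand. It stood at 3.93 and 1.90 TPM in the Rnaseh1 libraries, against 6.12 and 7.47 TPM in the mCherry libraries. The groups did not overlap, and the log2 fold change was -1.04 (SE 0.3, adjusted p = 0.018). The call was lost without mCherry replicate 2 (-0.91, adjusted p = 0.101) and without the filter on low values (-1.04, adjusted p = 0.0505). Cdkn1c (ENSMUSG00000037664.13), which encodes the cyclin-dependent kinase inhibitor p57, lies at chr7:143458339-143461050 on the minus strand. It stood at 5.94 and 4.64 TPM with Rnaseh1, against 4.06 and 2.61 TPM with mCherry (log2 fold change 0.55, SE 0.34, adjusted p = 0.2). Igf2r (ENSMUSG00000023830.14), the receptor that takes up IGF2 for degradation, at chr17:12682406-12769664 on the minus strand, stood at 5.71 and 3.05 TPM with Rnaseh1, against 2.96 and 3.58 TPM with mCherry. Its libraries overlapped (log2 fold change 0.29, SE 0.3, adjusted p = 0.42).

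Gnas (ENSMUSG00000027523.20), which encodes the stimulatory G protein alpha subunit, rose. The subunit couples receptors to adenylyl cyclase, and cyclic AMP made by that enzyme holds mouse oocytes in meiotic arrest. The locus spans chr2:174284320-174346744 on the plus strand, and the antisense transcript Nespas overlaps it. Gnas stood at 194.7 and 200.3 TPM in the Rnaseh1 libraries, against 95.7 and 91.2 TPM in the mCherry libraries. The replicates of each group nearly coincided, and the log2 fold change was 1.07 (SE 0.08, adjusted p = 3.3e-05). The call held under the 9 alternative ways of processing and without any 1 library, with values from 1.04 to 2.05.

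The scaling of the libraries changed several of the smaller calls. Median centring and quantile normalization moved the median of all genes to 0.06 and 0.05, and the share of calls that rose was 30.5% with TPM as deposited, 52.4% after median centring and 51.6% after quantile normalization, and it was 23.7% with the GC trend described below taken out. After median centring Grb10 was at -0.45 (adjusted p = 0.21) and Impact at -0.63 (adjusted p = 0.13), so neither passed. Cdkn1c at 1.14 (adjusted p = 0.022) and Igf2r at 0.88 (adjusted p = 0.037) passed there, and the same 4 changes of call were seen after quantile normalization.

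Fold changes in the rescue set ran with the GC content of the transcripts. The rank correlation across 12603 genes, which are not independent replicates, was -0.53 for Rnaseh1 against mCherry. Transcripts of up to 42.3% GC, the lowest 10% of genes, had a median log2 fold change of 0.53, and those of at least 57.1%, the highest 10%, had one of -1.64. The imprinted genes did not follow that order in a simple way. Mest, at 50.9% GC, fell more than most genes, while Gnas at 56.6% and Plagl1 at 55.6% rose and both Rnaseh1 libraries of Cdkn1c, at 60.1%, lay above mCherry. Removal of the trend left Mest at -2.27 and raised the values of Gnas to 2.05, Plagl1 to 1.58 and Cdkn1c to 1.79. Cdkn1c then passed (adjusted p = 0.0025) and Grb10 did not (-0.68, adjusted p = 0.079). The trend was not particular to the rescue set. For Rnaseh1 against mCherry the rank correlation was -0.47 in SN oocytes and -0.3 in NSN oocytes. Log2 differences between replicates also ran with GC content, at 0.43 in NSN Rnaseh1 and -0.43 in SN mCherry, against 0.05 in NSN mCherry and 0.1 in SN Rnaseh1.

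**Figure D2:**
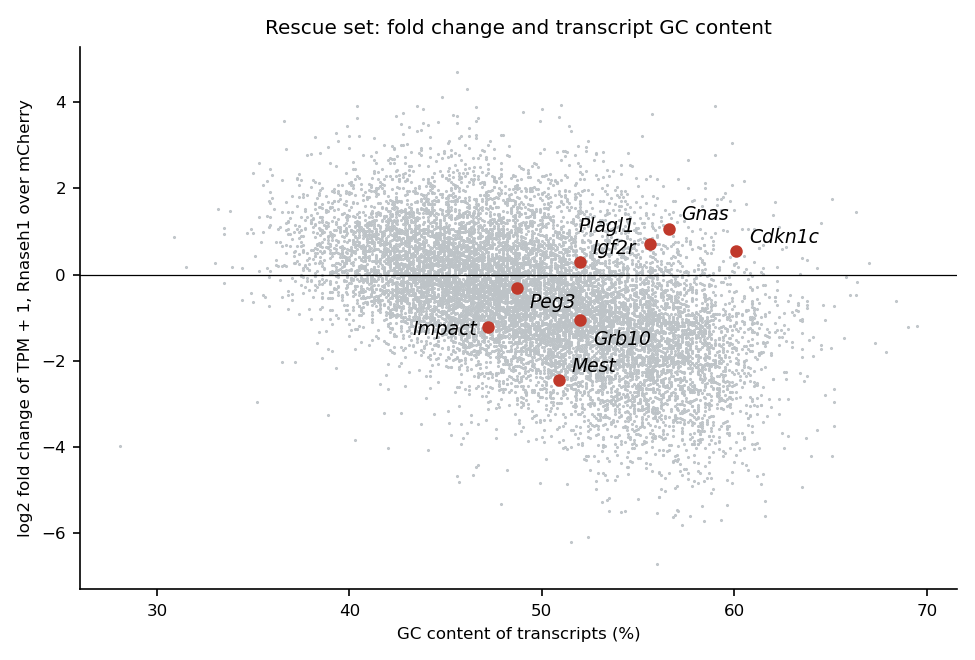
Log2 fold change of TPM + 1 for Rnaseh1 over mCherry in the rescue set against the GC content of each gene's transcripts in percent, with all tested genes in grey and 8 imprinted genes in red. The cloud of genes slopes downward (rank correlation -0.53), Mest lies at its lower side at -2.44, and Gnas, Plagl1 and Cdkn1c lie at its upper side.

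The libraries with Rnaseh1 and Supt6 were compared with those given Rnaseh1 alone. No group had Supt6 alone, so an effect of Supt6 by itself cannot be told apart from a return of levels that Rnaseh1 changed. The range of Rnaseh1 TPM given above also pools these groups, so it does not show whether both carried the same amount. With Supt6 added, 6 of the 8 tested genes differed from Rnaseh1 alone, 3 upward and 3 downward, against 58.9% of all genes (41.6% upward and 17.4% downward). The comparison shares its Rnaseh1 libraries with the one above and its own values are given. Mest stood at 244.9 and 262.2 TPM with Rnaseh1 and Supt6, against 27.3 and 37.8 TPM with Rnaseh1 alone. The log2 fold change was 2.94 (SE 0.15, adjusted p = 7.1e-06), above 97.1% of the tested genes. Gnas stood at 123.1 and 122.9 TPM, against 194.7 and 200.3 TPM (-0.68, SE 0.08, adjusted p = 0.00043), and Plagl1 at 29.2 and 24.9 TPM, against 50.8 and 40.6 TPM (-0.73, SE 0.17, adjusted p = 0.008). In none of these 3 genes did the groups overlap, which was so for 80% of all genes. The Plagl1 call was lost without replicate 2 of Rnaseh1 with Supt6 (-0.62, adjusted p = 0.068).

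The 3 low-level genes that passed against Rnaseh1 alone did so by less. Grb10 stood at 5.98 and 6.34 TPM with Rnaseh1 and Supt6, against 3.93 and 1.90 TPM with Rnaseh1 (0.92, SE 0.3, adjusted p = 0.033). Impact stood at 1.34 and 1.37 TPM, against 0.56 TPM and a library listed at 0 (0.91, SE 0.32, adjusted p = 0.043). Part of the Impact difference was built in, since neither Rnaseh1 library reached the filter of 1 TPM. Cdkn1c stood at 1.43 and 3.25 TPM, against 5.94 and 4.64 TPM (-0.96, SE 0.34, adjusted p = 0.046). Median centring and quantile normalization ended the calls of Grb10 (0.41 and 0.35) and Impact (0.40 and 0.50). The Grb10 call also ended with the GC trend removed (0.62, adjusted p = 0.114). Impact lost its call with pseudocounts of 0.1 (2.50, adjusted p = 0.0559) and 5 (0.27, adjusted p = 0.0674) in place of 1, and Cdkn1c with one of 0.1 (-1.24, adjusted p = 0.0599). Without the filter on low values all 3 calls ended. Leaving out 1 library ended the call of Cdkn1c for every library but replicate 2 of Rnaseh1 with Supt6 (adjusted p up to 0.27) and of Grb10 for every library but Rnaseh1 replicate 1 (up to 0.14). The call of Impact ended without Rnaseh1 replicate 2 or either library of Rnaseh1 with Supt6 (up to 0.15). Igf2r stood at 2.43 and 2.05 TPM, against 5.71 and 3.05 TPM, and Peg3 at 1.10 and 0.82 TPM, against 1.38 and 0.79 TPM. Neither passed, with adjusted p of 0.089 and 0.82, though Igf2r passed after median centring (-1.20, adjusted p = 0.012).

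Set against mCherry, Rnaseh1 with Supt6 left 1 of the 8 tested genes different, against 13.3% of all genes (5.71% upward and 7.6% downward, 1711 genes, and 65 to 259 genes without any 1 library of either group). That gene was Gnas, at 123.1 and 122.9 TPM against 95.7 and 91.2 TPM with mCherry (0.39, SE 0.08, adjusted p = 0.028). The Gnas call was lost when any library of either group was left out, with adjusted p from 0.093 to 0.18. Mest stood at 244.9 and 262.2 TPM, against 183.9 and 173.2 TPM, with both libraries above the mCherry libraries, as 61.3% of all genes had no overlap, and no call (0.50, SE 0.15, adjusted p = 0.075). The other 6 tested genes lay between -0.41 (Cdkn1c) and -0.02 (Plagl1), with adjusted p from 0.42 to 0.96. Grb10, at 5.98 and 6.34 TPM against 6.12 and 7.47 TPM, and Plagl1, at 29.2 and 24.9 TPM against 29.7 and 25.2 TPM, overlapped with mCherry. Cdkn1c also overlapped. Both libraries of Peg3 (-0.37), Igf2r (-0.40) and Impact (-0.30) lay below both mCherry libraries, without a call. The same held for 34.5% of all tested genes. A p above the threshold does not show that these levels were equal.

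**Figure D3:**
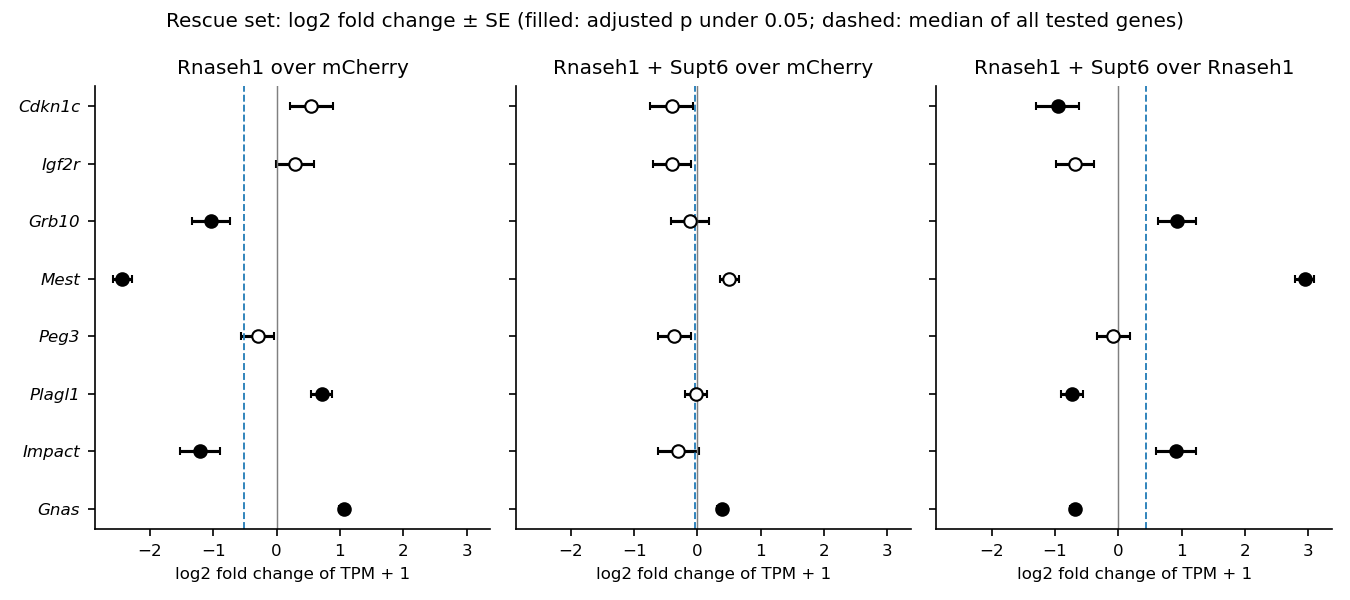
Log2 fold change of TPM + 1 ± SE for 8 imprinted genes in the 3 comparisons of the rescue set, filled where the adjusted p was under 0.05, with the median of all tested genes dashed. Mest lies at -2.44, 0.50 and 2.94 in the 3 panels, and Gnas is the only filled point in the middle panel.

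In the NSN and SN set none of the 8 tested imprinted genes passed in any comparison, and neither did any other gene with all libraries in the fit. The overexpressed Rnaseh1 was itself among the genes not called, so a missing call there does not show an unchanged level. The share of the 12736 tested genes called was 0% for Rnaseh1 against mCherry in SN oocytes and in NSN oocytes, for SN against NSN oocytes with mCherry or with Rnaseh1, and for the difference of the Rnaseh1 effects. An unadjusted p under 0.05 was reached by 859 genes (6.74%) for Rnaseh1 in SN oocytes, 353 (2.77%) in NSN oocytes, 328 (2.58%) between the states with mCherry, 584 (4.59%) between the states with Rnaseh1 and 288 (2.26%) for the difference of effects. Of the imprinted genes, Cdkn1c reached it in all 5 comparisons and Impact in 1, and no other did in any. Without NSN Rnaseh1 replicate 1, 1103 genes passed for Rnaseh1 in NSN oocytes and 102 for SN against NSN oocytes with Rnaseh1, with 0 of the 8 imprinted genes in either. The values of this set are therefore given as levels, without a called direction.

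Cdkn1c had the least overlap of the imprinted genes there. It stood at 12.0 and 9.24 TPM in SN oocytes with Rnaseh1, against 2.10 and 2.7 TPM in SN oocytes with mCherry. In NSN oocytes the order was the other way, with 2.71 and 3.26 TPM with Rnaseh1, against 8.49 and 6.80 TPM with mCherry. The log2 fold changes were 1.77 (SE 0.41, adjusted p = 0.61, unadjusted p = 0.0031) in SN oocytes and -1.11 (SE 0.41, adjusted p = 0.76, unadjusted p = 0.029) in NSN oocytes. Between the states Cdkn1c was at 1.54 for SN against NSN oocytes with Rnaseh1 and at -1.35 with mCherry, with adjusted p of 0.92 and 1. In each of these 4 pairs the libraries of the groups did not overlap, which held for 50.7%, 32.9%, 26.6% and 27.5% of all tested genes in the same order.

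**Figure D4:**
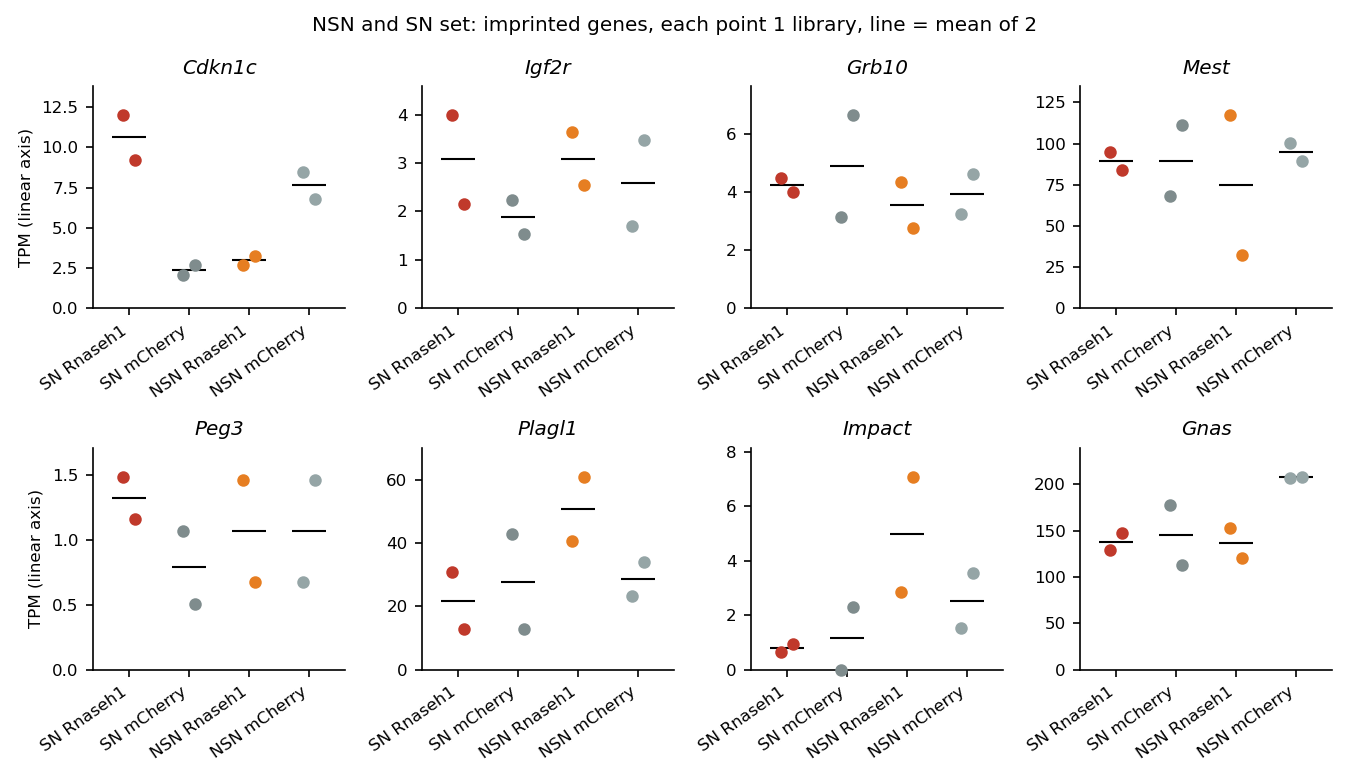
TPM of 8 imprinted genes in the NSN and SN set by group, each point 1 library and each line the mean of 2, on linear axes from 0. Cdkn1c stands at 12.0 and 9.24 TPM in SN Rnaseh1 and at 2.10 and 2.7 TPM in SN mCherry, while Mest, Igf2r and Grb10 overlap in every pair of groups compared.

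Mest, which differed most in the rescue set, stood at 94.6 and 83.8 TPM in SN oocytes with Rnaseh1, against 68.0 and 111.3 TPM with mCherry. In NSN oocytes it stood at 117.3 and 32.3 TPM with Rnaseh1, against 100.3 and 89.4 TPM with mCherry. Both pairs overlapped, with log2 fold changes of 0.03 (SE 0.59) and -0.61 (SE 0.59). The low NSN library was replicate 2 of NSN Rnaseh1, a group whose replicates stood far apart. Without one or the other of its libraries the NSN value ran from -1.52 to 0.31.

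Gnas stood at 128.9 and 146.9 TPM in SN oocytes with Rnaseh1, against 177.8 and 112.8 TPM with mCherry, which overlapped (-0.04, SE 0.35). In NSN oocytes it stood at 152.4 and 120.3 TPM with Rnaseh1, against 206.5 and 208.2 TPM with mCherry, so both Rnaseh1 libraries lay below (-0.61, SE 0.35, adjusted p = 0.76). With mCherry, both SN libraries of Gnas lay below both NSN libraries, without a call (-0.55, SE 0.35). In that comparison 27.5% of all tested genes had no overlap. Plagl1 stood at 30.8 and 12.9 TPM in SN oocytes with Rnaseh1, against 42.9 and 12.8 TPM with mCherry. Its NSN libraries stood at 40.7 and 61.0 TPM with Rnaseh1, against 23.3 and 34.1 TPM with mCherry, with no overlap and no call (0.80, SE 0.65, adjusted p = 0.76). With Rnaseh1, Plagl1 lay lower in SN than in NSN oocytes in both libraries (-1.27, SE 0.65, adjusted p = 1).

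Impact stood at 0.67 and 0.93 TPM in SN oocytes with Rnaseh1, against 2.85 and 7.09 TPM in NSN oocytes with Rnaseh1 (-1.64, SE 0.69, adjusted p = 1). Neither SN Rnaseh1 library reached the filter of 1 TPM, so part of this difference was built into the selection of Impact. In the mCherry oocytes it was listed at 0 in one SN library and stood at 2.30 TPM in the other, against 1.54 and 3.54 TPM in NSN oocytes, which overlapped. Igf2r ranged from 1.53 to 3.99 TPM over the 8 libraries, Grb10 from 2.76 to 6.67 TPM and Peg3 from 0.51 to 1.49 TPM. For these 3 genes, all groups compared overlapped except for Peg3 in SN oocytes, at 1.49 and 1.16 TPM with Rnaseh1 against 1.07 and 0.51 TPM with mCherry (0.39, SE 0.44, adjusted p = 0.71). Over the 8 tested genes the median log2 fold change with Rnaseh1 was 0.01 in SN oocytes and -0.06 in NSN oocytes, against -0.22 and -0.29 over all genes.

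A list of 62 further imprinted genes was set beside these 10. In the rescue set 28 of the 62 were tested, and with Rnaseh1 3 rose and 14 fell, at a median of -1.03 against -0.52 over all genes. Of all tested genes 20.3% rose and 46.2% fell, so these counts lay near the background. H13, which encodes a signal peptide peptidase, stood at 13.8 and 16.1 TPM with Rnaseh1, against 221.9 and 232.6 TPM with mCherry (-3.85, adjusted p = 6.9e-07). Blcap, a neighbour of the imprinted gene Nnat, stood at 11.8 and 10.4 TPM, against 181.0 and 182.1 TPM (-3.92, adjusted p = 6.9e-07). Nap1l4, a nucleosome assembly gene, and Tssc4, both of the cluster that holds Cdkn1c, were at -2.59 and -3.67. The 3 that rose were Phlda2, which restrains placental growth, at 1.51, the ubiquitin ligase gene Ube3a at 1.47 and the phosphatase gene Inpp5f at 0.68.

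With Supt6 added to Rnaseh1, 11 of these 28 genes rose and 2 fell against Rnaseh1 alone, at a median of 0.63 against 0.44 over all genes, of which 41.6% rose and 17.4% fell. The count that rose lay near the background. Blcap was at 3.75, H13 at 3.45, Tssc4 at 2.73 and Nap1l4 at 1.89, and the 2 that fell were Phlda2 at -1.07 and Ube3a at -1.32. Against mCherry, where 5.71% of all genes rose and 7.6% fell, 0 rose and 2 fell, Nap1l4 at -0.69 (adjusted p = 0.019) and Tssc4 at -0.94 (adjusted p = 0.031). In the NSN and SN set 26 of the 62 were tested and 0 passed in limma. The smallest unadjusted p there belonged to the noncoding gene Rian for SN against NSN oocytes with Rnaseh1 (-2.19, unadjusted p = 0.0011, adjusted p = 0.83), and H13 was at -2.57 (adjusted p = 0.61) for Rnaseh1 in SN oocytes.

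Genes that set and keep maternal imprints were the other list, with 19 of 20 tested in each set. In the rescue set 5 rose and 12 fell with Rnaseh1, beside 20.3% upward and 46.2% downward over all genes, and their median was -1.13 against -0.52 over all genes. Dnmt3l, the partner that guides DNMT3A, stood at 28.4 and 24.1 TPM with Rnaseh1, against 244.5 and 262.4 TPM with mCherry (-3.23, SE 0.11, adjusted p = 1.1e-06). Dnmt3a itself was higher, at 172.5 and 126.6 TPM against 102.1 and 113.7 TPM (0.45), and Setd2, which methylates histone H3 lysine 36, stood at 83.0 and 61.7 TPM against 37.6 and 44.6 TPM (0.79). Both passed the test.

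Of the genes that keep imprints, Uhrf1, which recruits DNMT1 to newly copied DNA, stood at 25.3 and 19.6 TPM with Rnaseh1, against 248.4 and 294.1 TPM with mCherry (-3.54, adjusted p = 2.3e-06). Zfp57 stood at 499.6 and 513.6 TPM, against 1597 and 1666 TPM (-1.69, adjusted p = 1.8e-06). Dppa3, which shields maternal methylation in the zygote, was at 1.88. These 3 genes and Dnmt3l had the smallest p of the list.

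**Figure D5:**
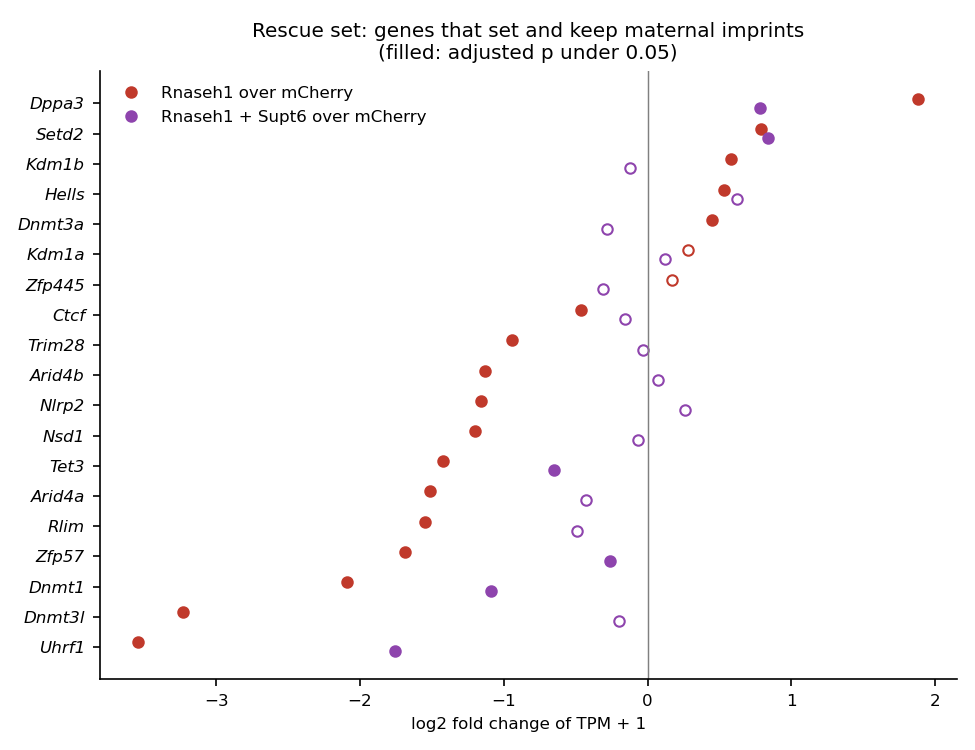
Log2 fold change of TPM + 1 in the rescue set for 19 genes that set and keep maternal imprints, for Rnaseh1 over mCherry and for Rnaseh1 with Supt6 over mCherry, filled where the adjusted p was under 0.05. Dnmt3l lies at -3.23 and Dppa3 at 1.88 for Rnaseh1 over mCherry, and most values lie nearer 0 with Supt6.

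With Supt6 added to Rnaseh1, 11 of the 19 rose and 3 fell against Rnaseh1 alone, at a median of 0.91 against 0.44 over all genes, of which 41.6% rose and 17.4% fell. Dnmt3l was at 228.4 and 213.2 TPM with both, against 28.4 and 24.1 TPM with Rnaseh1 (3.03), Zfp57 at 1.42, the maternal factor gene Nlrp2 at 1.42 and Dppa3 at -1.10. Against mCherry 2 rose and 4 fell, at a median of -0.16 against -0.04 over all genes, of which 5.71% rose and 7.6% fell. Dppa3 (0.78) and Setd2 (0.84) rose, and Uhrf1 (-1.76), Dnmt1 (-1.09), Tet3 (-0.65) and Zfp57 (-0.26) fell. In the NSN and SN set 0 of the 19 passed in limma, and the smallest unadjusted p for Rnaseh1 belonged to the corepressor gene Trim28 in both states, at -1.15 in SN oocytes (unadjusted p = 0.022) and -0.99 in NSN oocytes (unadjusted p = 0.041).

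Genes that lie beside the 10 did not share one direction with them. Of 39 tested genes within 250000 bases, 4 rose and 22 fell with Rnaseh1 in the rescue set, at a median of -0.66 against -0.52 over all genes, of which 20.3% rose and 46.2% fell. The neighbours' counts lay near that background. Beside Mest, which fell, Cep41, a centrosomal gene, stood at 589.8 and 536.1 TPM with Rnaseh1, against 85.1 and 89.4 TPM with mCherry (2.67, adjusted p = 1e-06). Copg2, whose 3′ end overlaps that of Mest on the other strand, did not pass (-0.29, adjusted p = 0.3). Beside Gnas, which rose, Nelfcd, a subunit of the negative elongation factor, fell by 2.23 on the log2 scale and Atp5e, of the mitochondrial ATP synthase, rose by 1.38. Airn, the noncoding transcript that crosses Igf2r in antisense, was at -0.66 (adjusted p = 0.099). Reads of Mest and Copg2, Gnas and Nespas, and Igf2r and Airn cannot be told apart where they overlap unless counting used the strand, which is not given in the sources used here.

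The genes with patterns most like those of Mest, Gnas and Plagl1 were sought over all 14 libraries, with log2(TPM + 1) centred within each set and 6564 genes of at least 5 TPM as candidates. Psg20 (r = 0.968), Zfp414 (0.968) and Ywhaz (0.965) were nearest to Mest. Zfp414, a zinc finger gene, stood at 54.9 and 55.2 TPM with Rnaseh1 and Supt6, 3.95 and 3.63 TPM with Rnaseh1 and 44.9 and 44.9 TPM with mCherry, the same order of groups as for Mest. Atp6v1g1 (0.956), Ccne2 (0.952) and Psmc6 (0.939) were nearest to Gnas, and Mvb12b (0.941), Gfod1 (0.935) and Olfm1 (0.925) to Plagl1. Among the imprinted genes themselves Mest and Grb10 had r = 0.77 and Mest and Gnas r = -0.52. The libraries share treatment and scaling, so these coefficients are descriptions.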

How the data were processed

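The deposited values are TPM per gene, 1 column per library, made by the authors. Per the submitters' processing notes, the tools were Trim Galore 0.6.7, STAR 2.7.0d, RSEM 1.3.3 and DESeq2, with mm10, each named without its role. Because TPM carries no depth, no counting error is given. Each table was fitted whole with limma 3.58.1 (R 4.3.3, eBayes with a trend) on log2(TPM + 1), with 1 mean per group and 1 spread per table. A gene was tested where at least 2 libraries reached 1 TPM, and called at an adjusted p under 0.05. Coordinates and GC content come from GENCODE M21 (GRCm38), promoter windows from RefSeq (GRCm38.p6). The tables were scaled separately and were not tested against each other. All 10 genes are named, but not every gene has a value printed for every comparison. Up to 4 genes of smallest p from each further list are named, with the 3 genes most like a member of at least 5 TPM. Neighbours, and genes named to resolve small counts, were picked after their values were seen. Members, lists and alternatives were chosen with earlier results of these data known. Fits were repeated with pseudocounts of 0.1 and 5, without the filter, at 5 TPM, with median centring, quantile normalization, rescaling without the overexpressed genes, GC trend removal, a replicate block, and libraries left out. The fit was run on simulated data with noise independent between genes and changes placed only in well-expressed genes. Such a run does not cover the calls of low-level genes.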

Additional observations from a re-analysis of the deposited data

Results flagged for a closer look

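Cdkn1c was picked out because its libraries moved in opposite directions with Rnaseh1 in the 2 nucleolar states. Its log2 fold change was 1.77 in SN oocytes and -1.11 in NSN oocytes, and the difference was 2.88 (SE 0.58). That difference was tested and did not pass over all genes, with limma's unadjusted p of 0.0014 and adjusted p of 1, where 0 genes passed and 288 had an unadjusted p under 0.05. It ran from 1.74 to 3.43 under 9 alternative ways of processing. The range was 2.71 to 3.11 without single libraries or without NSN Rnaseh1 replicate 2 and SN mCherry replicate 2 together.

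For 3 further values the Rnaseh1 libraries lay on one side of mCherry in 1 set and on the other side in the rescue set. In either direction, libraries did not overlap for 81.1% of all tested genes in the rescue set, 50.7% in SN oocytes and 32.9% in NSN oocytes. The share of all genes that switched sides, here or between SN and NSN oocytes, was not counted. The Cdkn1c log2 fold change in NSN oocytes minus that in the rescue set was -1.66, and for Gnas the same difference was -1.68. For Peg3 the value in SN oocytes minus that in the rescue set was 0.69. These 3 differences were not tested, because the 2 tables were scaled separately and the rescue labels give no nucleolar state.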

How the results depend on the processing

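With Rnaseh1 against mCherry in the rescue set, 5 of the 8 tested genes were called, and 3 to 5 were called without single libraries. The lowest count, without mCherry replicate 2, dropped Grb10 and Plagl1. For Rnaseh1 with Supt6 against Rnaseh1 the count was 6, and it was 3 without a filter, where Cdkn1c, Grb10 and Impact dropped out, and 3 to 5 without single libraries. For Rnaseh1 with Supt6 against mCherry it was 1, and 0 to 2 without single libraries, with Mest passing (adjusted p = 0.015) without either Rnaseh1 library. A left-out library leaves a group with 1, which is then assumed to vary like the others. Mest and Gnas kept their calls under every alternative run in both comparisons with Rnaseh1 alone. Over the whole NSN and SN table, leaving out NSN Rnaseh1 replicate 1 called 1103 genes in place of 0 for Rnaseh1 in NSN oocytes and 102 in place of 0 for SN against NSN oocytes with Rnaseh1, none of them among the 10, and no other alternative called more than 1 gene there. Over the rescue table, Rnaseh1 with Supt6 against mCherry called 1711 genes, 927 without a filter and 65 to 259 without a library of either group. The labels do not say if the replicate numbers pair the libraries. Deviations of libraries with the same number correlated at -0.51 to 0.17, which cannot decide it. With the replicate number as a block, Cdkn1c lost its call against Rnaseh1 alone (-0.96, adjusted p = 0.065) and no other imprinted gene changed its call. No called value changed sign. The number of reads behind the genes near 1 TPM, Peg3 and Impact, is unknown.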
